A study of Homo sapiens with 6 samples.

Results

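The genes described here encode the small heat-shock protein HSPB8, its co-chaperone BAG3 and 8 other parts of the cytosolic heat-shock chaperone machinery. They were taken by gene symbol: HSPB8, HSPB1, BAG3, CRYAB, HSPA1A, HSPA1B, HSPA8, DNAJB1, HSF1 and STUB1, 10 of the 69292 gene identifiers in the count table, each matched through its Ensembl identifier. The group was chosen by the measured level of HSPB8, which was high in cells resistant to ridaforolimus, so its ridaforolimus values, and those of all 10 genes in the comparison of that line with the parental line, are given as a description with no p-value. Of the 10 genes, 9 had enough counts to be fitted and CRYAB had not.

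Polyadenylated RNA was sequenced from MDA-MB-231, a human cell line established from breast cancer of the triple-negative kind, in 3 groups of 2 libraries. The first group was the derivative MDA-MB-231/DRRIDA, which tolerates ridaforolimus and was cultured with it at 30 µM. The second was MDA-MB-231/DREVE, resistant to everolimus and kept in 20 µM everolimus. The reference was the parental MDA-MB-231 line, labelled DMSO in one field and described as grown without drug in another. Both drugs are analogs of rapamycin, which bind an FKBP protein and inhibit the kinase complex mTORC1, and the 2 doses differed. Each resistant line was obtained over months of exposure and is a single derivative, so resistance, the drug present at harvest and drift of that derivative cannot be told apart. Nothing in the labels says that the 2 libraries of a group came from separate cultures, so the p-values measure only the spread between these libraries, which may be technical.

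Small heat-shock proteins hold unfolding proteins in a soluble state without using ATP, and HSP70 proteins refold or hand them on with the help of J-domain proteins and nucleotide exchange factors. BAG3 is such an exchange factor, and it binds HSPB8 and HSP70 at the same time. With the ubiquitin ligase CHIP, the product of STUB1, the complex of HSPB8, BAG3 and HSPA8 delivers misfolded proteins to autophagosomes, a route called chaperone-assisted selective autophagy that is best known from muscle. HSF1 is the transcription factor that binds heat-shock elements, repeats of GAA and its reverse complement TTC, and drives the heat-inducible chaperone genes.

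Library totals lay between 13134567 and 15556246 counts, so 1 count corresponded to 0.0661 to 0.0764 CPM, the unit of level used here, in which counts are divided by the effective library size. Of the line's markers, VIM had 483 and 646 CPM in the ridaforolimus line, 351 and 585 CPM in the everolimus line and 302 and 323 CPM in the parental line. CD44 had 301 and 425 CPM in the ridaforolimus line, 150.1 and 266 CPM in the everolimus line and 174 and 134 CPM in the parental line, while EGFR lay between 405 and 558 CPM in all libraries. Of the receptor and luminal markers, PGR and CDH1 had 0 to 3 counts, ESR1 0.435 to 0.916 CPM, FOXA1 3.12 to 7.93 CPM and ERBB2 44.3 to 62.9 CPM. GATA3 had 0.915 and 0.950 CPM in the ridaforolimus line, 3.91 and 5.88 CPM in the everolimus line and 3.90 and 4.37 CPM in the parental line. VIM, CD44 and GATA3 thus differed between the ridaforolimus and parental libraries without overlap, as HSPB8 and 49.4% of all genes tested did. Their part in the results was not tested. HSPB8 and CRYAB are abundant in muscle, and of the muscle markers MYH7 had 0 counts in all 6 libraries, whereas TNNT1 reached 31.9 to 63.1 CPM.

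The sequences just upstream of the start of 4 of these genes are shown because HSF1 acts on heat-inducible genes through short elements there, and because these genes took different courses. Each is the 250 bases before the RefSeq start in GRCh38.p14, on the gene's own strand, at chr12:119178681-119178930 (plus strand) for HSPB8, chr10:119651130-119651379 (plus strand) for BAG3, chr6:31827488-31827737 (plus strand) for HSPA1B and chr11:123062137-123062386 (minus strand) for HSPA8. Capitals mark matches to GAANNTTC or TTCNNGAA, the 2-unit forms of a heat-shock element, both of which read the same on the other strand.
HSPB8: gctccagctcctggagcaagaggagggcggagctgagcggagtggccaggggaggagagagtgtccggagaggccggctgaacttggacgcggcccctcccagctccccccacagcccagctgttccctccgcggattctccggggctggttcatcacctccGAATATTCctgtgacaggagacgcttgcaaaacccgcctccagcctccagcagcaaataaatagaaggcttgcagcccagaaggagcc
BAG3: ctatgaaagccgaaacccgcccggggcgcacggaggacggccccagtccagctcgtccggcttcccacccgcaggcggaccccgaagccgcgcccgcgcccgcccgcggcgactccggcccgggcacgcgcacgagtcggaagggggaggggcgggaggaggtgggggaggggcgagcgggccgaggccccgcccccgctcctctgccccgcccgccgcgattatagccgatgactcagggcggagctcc
HSPA1B: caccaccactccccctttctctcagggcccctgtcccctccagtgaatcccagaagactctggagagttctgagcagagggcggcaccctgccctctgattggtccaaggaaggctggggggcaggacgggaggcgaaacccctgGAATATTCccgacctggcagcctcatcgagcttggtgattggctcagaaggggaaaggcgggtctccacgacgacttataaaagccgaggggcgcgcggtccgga
HSPA8: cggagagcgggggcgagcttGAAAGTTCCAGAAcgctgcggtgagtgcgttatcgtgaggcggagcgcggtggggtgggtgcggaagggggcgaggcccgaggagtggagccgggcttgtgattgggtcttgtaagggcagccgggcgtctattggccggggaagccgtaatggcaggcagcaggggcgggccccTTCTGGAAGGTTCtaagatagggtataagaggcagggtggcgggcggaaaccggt
The HSPB8 window held 1 match, GAATATTC, which starts at position -88 counted from the gene's start. The same 8 letters stand at position -105 in the HSPA1B window and at -106 in that of HSPA1A, and they occur in 0.29% of the 35116 RefSeq windows of this length. The HSPA8 window held 4 overlapping matches that join into both 3-unit forms, in which GAA and TTC alternate with 2 free bases between units. One or the other 3-unit form is found in 0.441% of windows. BAG3 held none, HSPB1 held 1, and DNAJB1 held 2 in one of its 3 windows. Either 2-unit form occurs in 11.6% of windows. A match is a run of letters, and binding of HSF1 was not measured.

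HSPB8 was high in the ridaforolimus line and low in the everolimus line, with the parental line between them. The gene (ENSG00000152137, chromosome 12, bases 119178642 to 119221131 of GRCh38, plus strand, in GENCODE 29) had 187 and 214 counts in the ridaforolimus-resistant libraries, 30 and 36 in the everolimus-resistant libraries and 70 and 62 in the parental libraries. That is 14.3 and 15.6 CPM in the ridaforolimus line, 2.17 and 2.38 CPM in the everolimus line and 5.35 and 4.37 CPM in the parental line. No library of one group reached the values of another. In bulk RNA a higher level per cell and a larger share of expressing cells cannot be told apart. The log2 fold change over the parental line was 1.62 ± 0.27 (SE, 95% interval 1.00 to 2.24) in the ridaforolimus line. In the everolimus line it was -1.09 ± 0.29 (95% interval -1.75 to -0.43), and this difference missed the threshold after adjustment over all genes (adjusted p = 0.419, edgeR quasi-likelihood test). Between the resistant lines, ridaforolimus over everolimus, the log2 difference was 2.71 ± 0.29, given as a description. Both fold changes over the parental line use the same parental libraries.

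The mean of HSPB8 over the 6 libraries was below that of 52.3% of the genes tested. Among the 18222 genes with a mean of at least 1 CPM, 394 had a smaller log2 fold change in the everolimus comparison. In the ridaforolimus comparison 224 had a larger one and between the resistant lines 70, which describes the values that chose the gene.

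**Figure D1:**
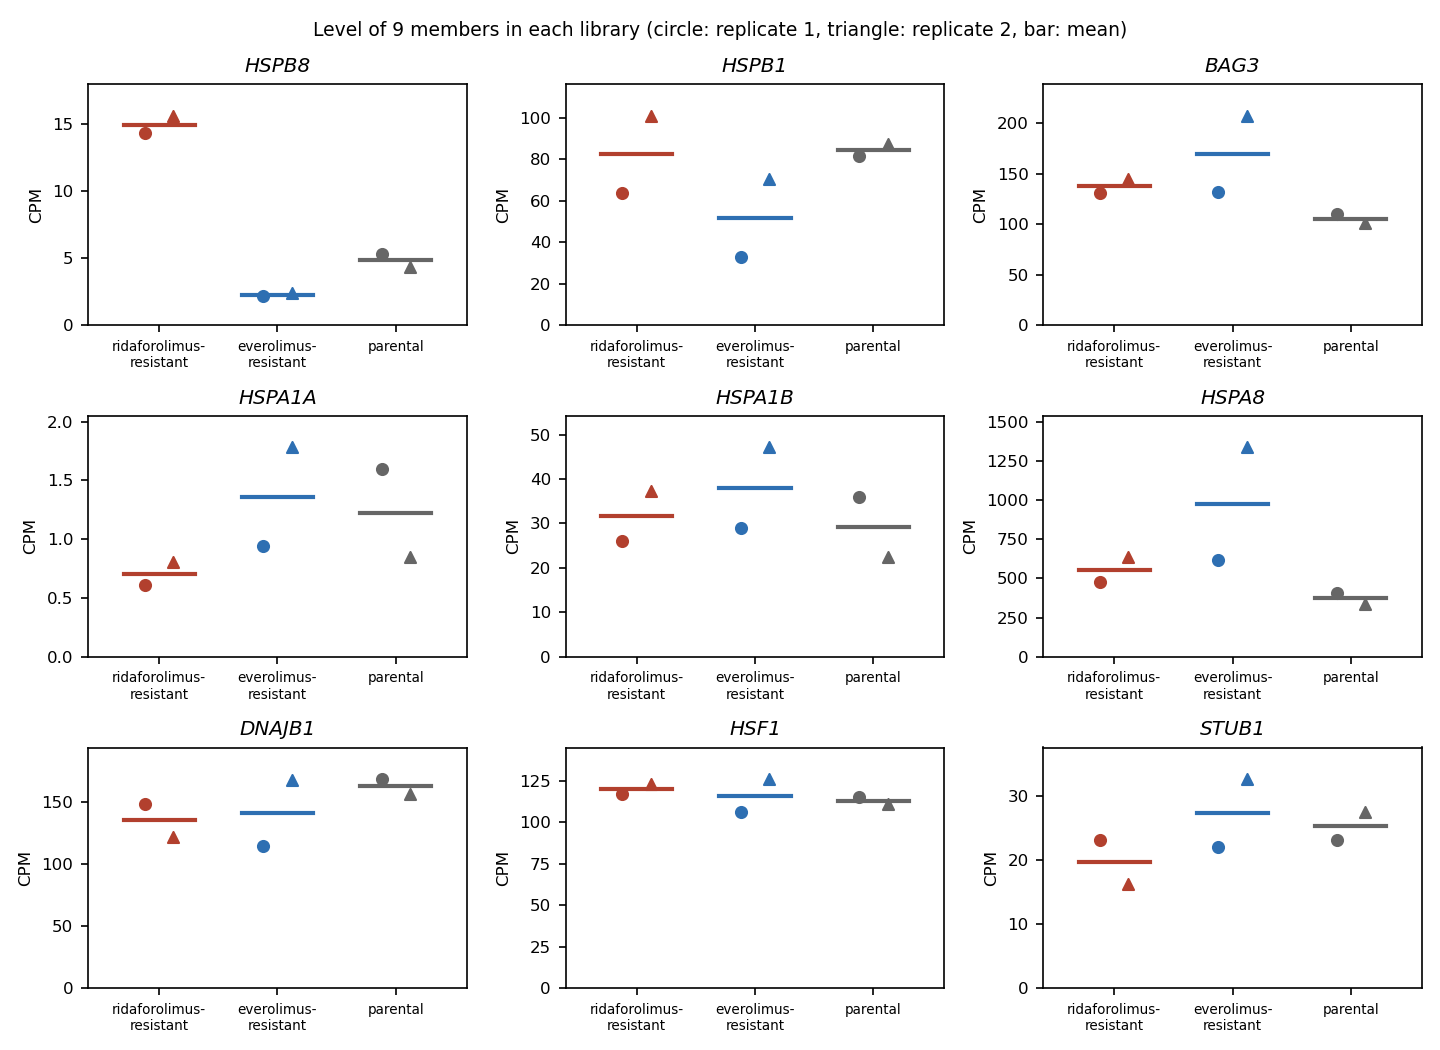
Level of the 9 fitted genes in each library, in CPM on linear axes that start at 0, with the ridaforolimus-resistant line left, the everolimus-resistant line in the middle and the parental line right. Circles are replicate 1, triangles replicate 2 and bars the mean. HSPB8 lies at 14.3 to 15.6 CPM in the ridaforolimus line, 2.17 to 2.38 CPM in the everolimus line and 4.37 to 5.35 CPM in the parental line, and for every gene the triangle of the everolimus line is above its circle.

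The other small heat-shock proteins did not share this pattern. HSPB1, the abundant actin-protecting chaperone also called HSP27 (ENSG00000106211, chromosome 7, 76302544 to 76304295, plus strand), had 64.0 and 101 CPM in the ridaforolimus line, 33.0 and 70.8 CPM in the everolimus line and 81.8 and 87.3 CPM in the parental line. The ridaforolimus libraries lay on either side of the parental ones (log2 fold change -0.04 ± 0.35, and 0.07 with upper-quartile scaling), and both everolimus libraries lay below them (-0.70 ± 0.36, adjusted p = 0.621). The 2 everolimus libraries differed from each other by 1.10 on the log2 scale, more than the 0.70 that separates their fitted level from the parental one. CRYAB, the alpha-B crystallin that forms oligomers with other small heat-shock proteins (ENSG00000109846, chromosome 11, 111908565 to 111923722, minus strand), had 2 counts in all, 1 in an everolimus library and 1 in a parental library. It was below the floor of 3 counts per library, 0.198 to 0.229 CPM, in all 6 libraries and is not compared. The gene overlaps HSPB2 on the opposite strand by 626 bases. Of the 11 small heat-shock protein genes listed, 3 were tested; the third, HSPB6, had 1.07 and 0.219 CPM in the ridaforolimus line, 1.59 and 0.793 CPM in the everolimus line and 1.76 and 1.13 CPM in the parental line.

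BAG3, the partner that joins HSPB8 to HSP70, stood above the parental level in both resistant lines, by a smaller fold than that of HSPB8. The gene (ENSG00000151929, chromosome 10, 119651370 to 119677819, plus strand) had 131 and 145 CPM in the ridaforolimus line, 132 and 207 CPM in the everolimus line and 109.6 and 101 CPM in the parental line. All 4 resistant libraries were above both parental ones. The log2 fold change was 0.39 ± 0.24 (95% interval -0.16 to 0.93) in the ridaforolimus line. It was 0.69 ± 0.24 (0.14 to 1.24) in the everolimus line and missed the threshold (adjusted p = 0.507, edgeR), with 0.32 when everolimus replicate 2 was left out. Because HSPB8 and BAG3 differed in size and direction, their ratio differed between the lines. On the TPM scale, which divides counts by the summed exon length of the gene, BAG3 stood 9.54 and 9.62 times above HSPB8 in the ridaforolimus libraries, 63.4 and 90.7 times in the everolimus libraries and 21.3 and 24.1 times in the parental libraries. The ratio contains the HSPB8 level by which the group was chosen and is a description.

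HSPA8, the constitutive HSP70 (also called HSC70) and the most abundant of the 10 genes, was highest in the everolimus line. The gene (ENSG00000109971, chromosome 11, 123057489 to 123063230, minus strand) had 475 and 639 CPM in the ridaforolimus line, 615 and 1336 CPM in the everolimus line and 407 and 339 CPM in the parental line. All resistant libraries were above both parental ones, and everolimus replicate 2 stood far above the rest. The log2 fold change was 0.58 ± 0.35 (95% interval -0.23 to 1.38) in the ridaforolimus line. In the everolimus line it was 1.39 ± 0.36 (0.57 to 2.21), with an adjusted p of 0.405 in edgeR and 0.0315 in DESeq2. Without everolimus replicate 2 the value was 0.72, and without replicate 1 it was 1.85. Between the resistant lines it was -0.81 ± 0.35 (adjusted p = 0.352), and -0.14 without everolimus replicate 2.

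HSPA1B, a heat-inducible HSP70, did not separate the groups. The gene (ENSG00000204388, chromosome 6, 31827735 to 31830255, plus strand) had 26.0 and 37.4 CPM in the ridaforolimus line, 28.9 and 47.1 CPM in the everolimus line and 35.9 and 22.5 CPM in the parental line, and all groups overlapped. Its log2 fold change was 0.12 ± 0.33 in the ridaforolimus line and 0.38 ± 0.33 in the everolimus line (adjusted p = 0.785). HSPA1A (ENSG00000204389, chromosome 6, 31815464 to 31817946, plus strand) had 8 and 11 counts in the ridaforolimus line, 13 and 27 in the everolimus line and 21 and 12 in the parental line. HSPA1A and HSPA1B encode nearly the same protein, and 72.6% of the 50-base stretches of the HSPA1A transcript also occur in HSPA1B, so the split of reads between them is uncertain. Their summed level was 26.6 and 38.2 CPM in the ridaforolimus line, 29.8 and 48.8 CPM in the everolimus line and 37.5 and 23.3 CPM in the parental line. The summed log2 fold change was 0.09 ± 0.33 in the ridaforolimus line and 0.37 ± 0.33 in the everolimus line (adjusted p = 0.793). For HSPA1A alone the ridaforolimus value was -0.78 ± 0.56, a direction that the sum did not share.

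DNAJB1, the J-domain partner that stimulates HSP70 and is itself heat-inducible (ENSG00000132002, chromosome 19, 14514770 to 14529770, minus strand), had 149 and 122 CPM in the ridaforolimus line, 115 and 168 CPM in the everolimus line and 169 and 157 CPM in the parental line. Both ridaforolimus libraries were below both parental ones by a small margin (-0.26 ± 0.23), and the everolimus libraries spanned nearly the whole range (-0.20 ± 0.23, adjusted p = 0.847).

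HSF1, the regulator (ENSG00000185122, chromosome 8, 144291591 to 144314722, plus strand), had close to the same mRNA level everywhere: 117 and 123 CPM in the ridaforolimus line, 106 and 126 CPM in the everolimus line and 115 and 111 CPM in the parental line. The 95% interval of its everolimus log2 fold change, 0.03 ± 0.18 (adjusted p = 0.974), ran from -0.38 to 0.45. HSF1 is regulated largely through its protein, which was not measured. STUB1, the ubiquitin ligase of the route (ENSG00000103266, chromosome 16, 680224 to 682870, plus strand), had 23.2 and 16.3 CPM in the ridaforolimus line, 22.0 and 32.7 CPM in the everolimus line and 23.2 and 27.6 CPM in the parental line. Its log2 fold changes were -0.36 ± 0.28 in the ridaforolimus line and 0.11 ± 0.27 in the everolimus line (adjusted p = 0.945), and the groups overlapped. STUB1 shares 983 bases with JMJD8 on the opposite strand, and the strand setting of the counting is not given in the sources used here, so reads of the 2 genes may not be separated.

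Counted together, the group held no gene past the threshold in the comparison of the everolimus line with the parental line. The counts of the ridaforolimus comparison, which chose the group, are given first and only as a description. In the ridaforolimus comparison, 4 of the 9 fitted genes were higher without overlap (HSPB8, BAG3, HSPA8 and HSF1) and 2 lower (HSPA1A and DNAJB1), where 49.4% of all genes tested did not overlap, 25.1% higher and 24.3% lower. There 0 of 9 passed an adjusted p of 0.05 in edgeR, with 68 of all 21223 tested genes passing (0.32%). Unadjusted, 1 of the 9 was under 0.05, against 14.5% of all genes, and DESeq2 called 1 and limma-voom 0. That gene was HSPB8, which this contrast chose, so nothing is read from these counts. In the everolimus comparison, 2 genes were higher without overlap (BAG3 and HSPA8) and 2 lower (HSPB8 and HSPB1), against 41.1% of all genes, 20.6% higher and 20.5% lower. None of the 9 passed in edgeR, where 1 of all tested genes did (0.00471%). At an unadjusted p under 0.05 there were 3, HSPB8, BAG3 and HSPA8, against 8.79% of all genes, while DESeq2 called 1 (HSPA8) and limma-voom 0. Between the resistant lines, 0 of the 8 fitted genes other than HSPB8 passed in edgeR, with 158 of all genes passing (0.744%, of which 0.471% higher). HSPA1A was the 1 of the 8 without overlap, on the lower side, where 41.2% of all genes did not overlap, 20.4% lower. The log2 differences of the 8 ran from -0.94 ± 0.56 for HSPA1A (adjusted p = 0.497) to 0.66 ± 0.36 for HSPB1 (adjusted p = 0.456; 0.21 to 1.32 with one library left out), with BAG3 at -0.30 ± 0.24 (adjusted p = 0.621), and 0.06 without everolimus replicate 2. HSPA8 was the 1 of these 8 under 0.05 unadjusted, against 14.1% of all genes, and DESeq2 and limma-voom called 0.

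**Figure D2:**
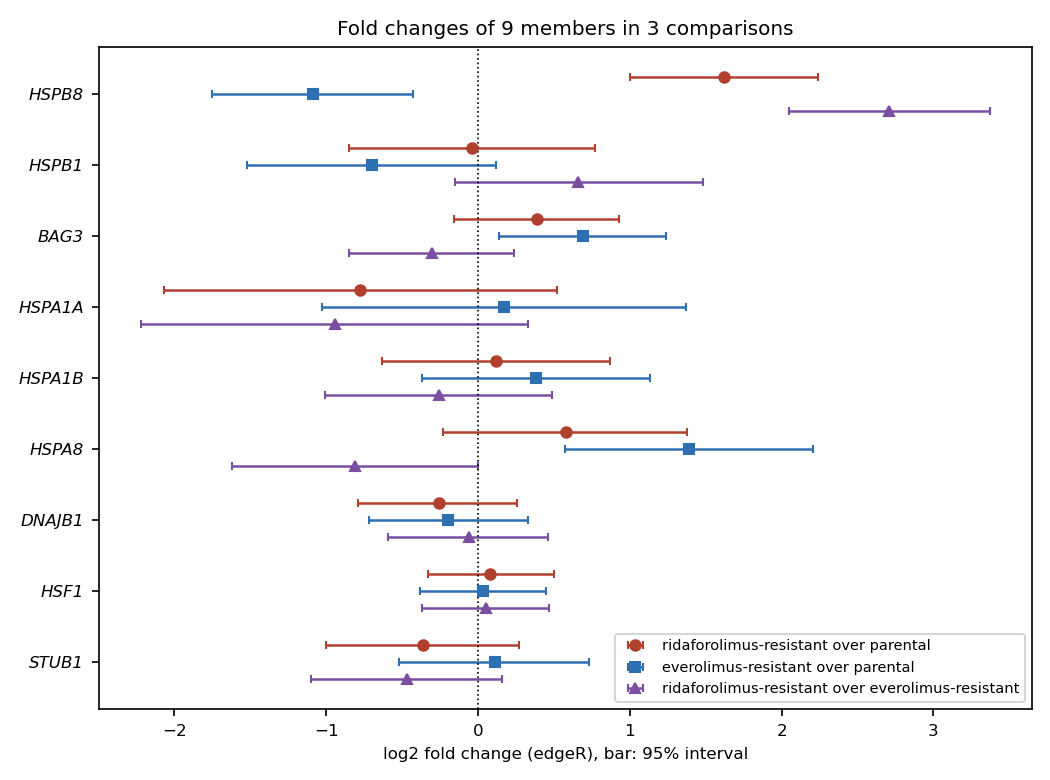
Log2 fold change of the 9 fitted genes in 3 comparisons (ridaforolimus over parental, everolimus over parental, ridaforolimus over everolimus), as points with 95% intervals of the edgeR fit. HSPB8 is at 1.62, -1.09 and 2.71, and BAG3 and HSPA8 lie above 0 in both comparisons with the parental line.

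On the per-length scale the order of the levels was much the same in the 3 lines. HSPA8 was first everywhere, at a mean of 335 TPM in the ridaforolimus line, 573 TPM in the everolimus line and 201 TPM in the parental line. HSPB1, BAG3 and DNAJB1 followed at 90.4 to 177 TPM, and their neighbours in the order overlapped or nearly touched: in the ridaforolimus libraries HSPB1 had 108 and 187 TPM, BAG3 131 and 159 TPM and DNAJB1 112 and 101 TPM. HSF1, HSPA1B and STUB1 came next in every line, with means of 65.5, 36.7 and 24.5 TPM in the ridaforolimus line. HSPB8 was eighth in all 3 lines at 15.2 TPM in the ridaforolimus line, 2.31 TPM in the everolimus line and 4.43 TPM in the parental line, ahead of HSPA1A and CRYAB. The constitutive HSPA8 stood 9.50 and 8.88 times above the inducible HSPA1B in the ridaforolimus line, 11.1 and 14.8 times in the everolimus line and 5.89 and 7.84 times in the parental line. Of the 50-base stretches of HSPA1B, 71.4% also occur in HSPA1A, and another annotated gene, AL671762.1, shares 920 of its bases on the same strand. Reads of HSPA1A and HSPA1B may therefore be undercounted, so these ratios and the places of both genes in the order are uncertain.

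Most cytosolic chaperone genes were higher in everolimus replicate 2 than in replicate 1. This held for 9 of the 9 fitted genes, with a median log2 gap of 0.65, whereas the median gap over all genes was -0.03 and 47.5% of genes were higher. The gap was 1.12 for HSPA8, 1.10 for HSPB1 and 0.65 for BAG3 but 0.12 for HSPB8. Gaps larger in size occurred in 9.61%, 10.3%, 27.9% and 81.5% of genes tested. The markers VIM, CD44 and EGFR had gaps of 0.74, 0.82 and -0.34. Of 13 J-domain genes 11 were higher in replicate 2, with a median gap of 0.16. Of 25 tested HSF1 target genes, 23 were higher in everolimus replicate 2 (median gap 0.73), against 9 of 25 between the ridaforolimus libraries (-0.10) and 15 of 25 between the parental ones (0.10). HSP90AA1, the inducible cytosolic HSP90, had 1031 and 961 CPM in the ridaforolimus line, 645 and 1837 CPM in the everolimus line and 665 and 879 CPM in the parental line. HSF1 targets together took 0.576% and 0.573% of counts in the ridaforolimus line, 0.513% and 0.842% in the everolimus line and 0.536% and 0.535% in the parental line.

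**Figure D3:**
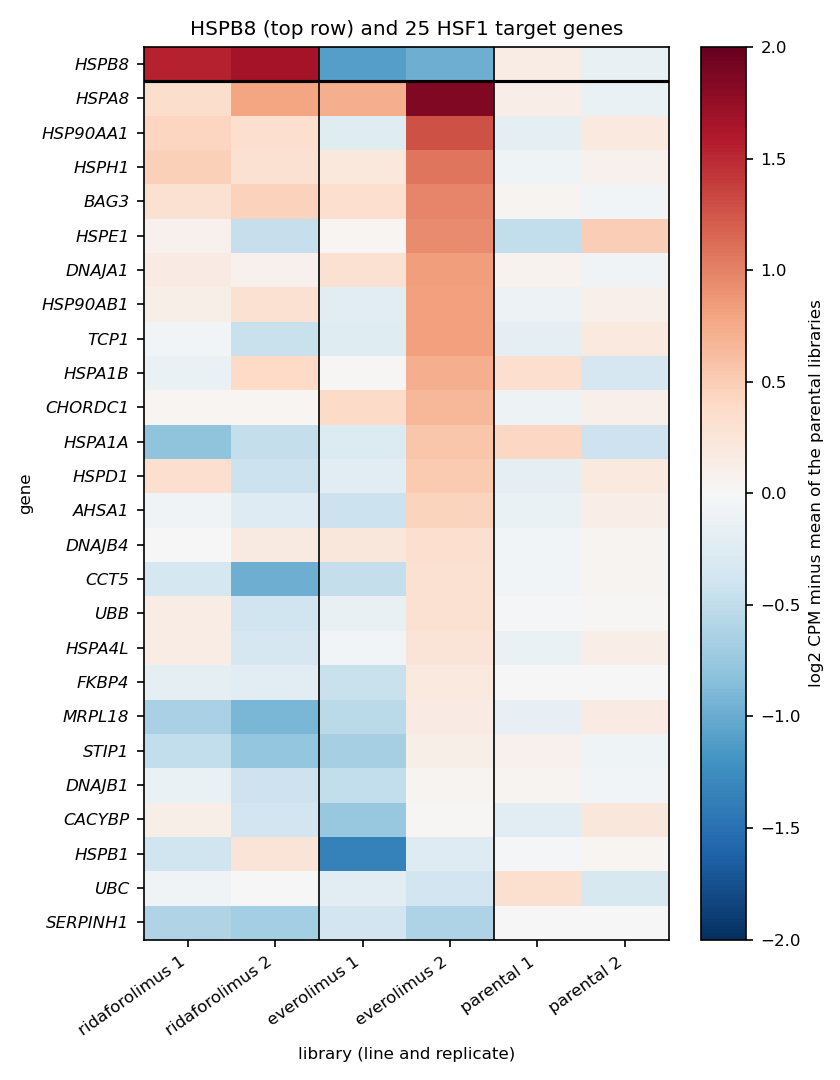
Log2 CPM of HSPB8 (top row) and of 25 HSF1 target genes (rows) in the 6 libraries (columns), minus each gene's mean in the parental libraries, as colour from blue (lower) to red (higher), with the ridaforolimus-resistant libraries left, the everolimus-resistant ones in the middle and the parental ones right. Everolimus replicate 2 lies above replicate 1 for 23 of 25 genes.

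For HSF1 targets as a list, the share above 0 turned with single libraries in all 3 comparisons, the ridaforolimus and everolimus replicates 2 among them. These left-out-library counts were added after the data were seen. In the everolimus comparison 16 of 25 had a log2 fold change above 0 (median 0.17, over all genes 0.02, with 52.3% of all genes above 0), but without everolimus replicate 2 it was 6 of 25 (median -0.27) and without replicate 1 it was 22 of 25 (median 0.45). In the ridaforolimus comparison 9 of 25 were above 0 (median -0.08, over all genes 0.01), 13 of 25 (median 0.02) with upper-quartile scaling, and 13 of 25 (median 0.00) without ridaforolimus replicate 2 or without parental replicate 2. Among targets at 5 CPM or more, HSPA8 was highest there at 0.58, followed by HSPH1, an HSP110 exchange factor, and BAG3, both at 0.39. MRPL18, a mitochondrial ribosomal protein, and SERPINH1, the collagen chaperone, were lowest at -0.78 and -0.65. Ridaforolimus over everolimus, 3 of 25 were above 0 (median -0.26), against 48.3% of all genes, but 15 of 25 (median 0.06) without everolimus replicate 2 and 7 of 25 without ridaforolimus replicate 2. No HSF1 target passed the threshold in any comparison in edgeR, with 3, 6 and 3 genes under an unadjusted p of 0.05 in the ridaforolimus comparison, the everolimus comparison and between the resistant lines, where 14.5%, 8.79% and 14.1% of all genes were.

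The wider chaperone network was taken from 14 lists that hold 135 genes beside the 10, of which 123 were tested. None of them passed the threshold in edgeR in either comparison with the parental line. Unadjusted p-values were under 0.05 for 18 of them in the ridaforolimus comparison (14.6%, over all genes 14.5%) and for 13 in the everolimus comparison (10.6%, over all genes 8.79%). In the comparison of the resistant lines with each other 1 gene passed, FKBP5. It encodes FKBP51, an HSP90 co-chaperone of the FKBP family to which rapamycin analogs bind, and had 108 and 158 CPM in the ridaforolimus line, 366 and 312 CPM in the everolimus line and 321 and 326 CPM in the parental line. Its log2 difference, ridaforolimus over everolimus, was -1.35 ± 0.23 with an adjusted p of 0.0499. That call was lost under 11 of 14 other settings, including each left-out library, where the difference stayed between -1.63 and -1.10. Against the parental line FKBP5 was at -1.28 ± 0.23 in the ridaforolimus line and 0.07 in the everolimus line.

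Most members of several protein-folding lists lay below 0 in the ridaforolimus comparison, with no gene past the threshold. For some of them this rested on ridaforolimus replicate 2, which was lower than replicate 1 for most of their genes. Upper-quartile scaling moves the median of all genes up by 0.097 there, and it left the medians of the lists in this paragraph below 0, between -0.23 and -0.05. Of the 14 genes of the cytosolic chaperonin CCT and prefoldin, which fold actin and tubulin, 13 were below 0 (median -0.22), but 8 (median -0.04) without ridaforolimus replicate 2 and 10 (median -0.08) without parental replicate 2. Among them were VBP1 and PFDN6, both prefoldin subunits, at -0.87 and -0.87 and CCT6A and PFDN4 at -0.03 and -0.03. Of the 13 HSP90 genes and co-chaperones 9 were below 0 (median -0.17, and -0.09 without ridaforolimus replicate 2 or -0.04 without parental replicate 2). CDC37, which brings kinases to HSP90, was at -0.68, and HSP90AA1 and HSP90AB1 were at 0.37 and 0.21. Of the 10 HSP70 cofactors 8 were below 0 (median -0.32, and -0.12 without ridaforolimus replicate 2), HSPBP1 and STIP1 lowest at -0.75 and -0.63 and BAG3 and ST13 highest at 0.39 and 0.32. Within the BAG family, BAG3 was the 1 of 6 above 0 (3 of 6 with upper-quartile scaling), BAG2 was next at -0.06, and BAG1 and BAG4 were lowest at -0.40 and -0.31. Of 16 chaperones of the endoplasmic reticulum 14 were below 0 in the ridaforolimus comparison (median -0.28) and 15 in the everolimus comparison (median -0.27). Among them HYOU1 was at -1.07 and -0.40 and HSPA5, the reticulum's HSP70, at -0.66 and -0.96 in those comparisons, while HSP90B1 and DNAJC10 were at 0.13 and 0.17 in the ridaforolimus line. Of 11 mitochondrial chaperones and proteases 10 were below 0 in the ridaforolimus line (median -0.29), but 6 (median -0.04) without ridaforolimus replicate 2 and 7 (median -0.18) without parental replicate 2. In the everolimus line 7 of the 11 were below 0, with the same median of -0.29 (-0.40 to -0.15 with 1 library left out). LONP1, a protease, was at -0.97 in the ridaforolimus line, with 341 and 148 CPM there and 476 and 483 CPM in the parental line, and at -0.48 without ridaforolimus replicate 2. In the everolimus line LONP1 was at -0.85, and at -0.63 without everolimus replicate 2. In the ridaforolimus line the protease CLPP was at -0.76, HSPD1 at -0.01 and CLPB at 0.18. Over all genes 51.3% were above 0 in the ridaforolimus comparison and 52.3% in the everolimus comparison.

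The cytosolic HSP70, J-domain and regulator lists had mixed signs in the ridaforolimus comparison, and their medians of -0.08, -0.05 and -0.03 became 0.03, 0.04 and 0.07 with upper-quartile scaling. Among 11 cytosolic HSP70 and HSP110 genes 5 were above 0, led by HSPA12A (0.91) and HSPA8, with HSPA4 and HSPA14 at -0.28 and -0.22. In the everolimus line 10 of 11 were above 0 (median 0.19), but 6 of 11 (median 0.00) without everolimus replicate 2. Among 13 J-domain proteins 6 were above 0, with DNAJB2 and DNAJA1 at 0.37 and 0.13 and DNAJC8 and DNAJC9 at -0.49 and -0.31. Among 7 heat-shock factors and regulators 3 were above 0, with HSF4 and the deacetylase SIRT1 at 0.76 and 0.26 and HSBP1 and VCP at -0.23 and -0.10.

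The list of chaperone-assisted selective autophagy holds 16 tested genes, HSPB8, BAG3, HSPA8 and STUB1 among them. Of its 12 other genes 3 were above 0 in the ridaforolimus comparison (median -0.14) and 5 in the everolimus comparison (median -0.06). With the 4 included it was 6 of 16 (median -0.04, and 0.06 with upper-quartile scaling) and 8 of 16 (median 0.02). HSPB8 and HSPA8 led it in the ridaforolimus line, and FLNA, an actin crosslinker that the route clears in muscle, was lowest at -0.68. Of 11 autophagy receptors and ATG8 proteins 7 were above 0 in the ridaforolimus line (median 0.17). It was 6 of 11 (median 0.04) without ridaforolimus replicate 2 or without parental replicate 2. In the everolimus line 2 were above 0 (median -0.20), but 6 of 11 (median 0.04) without everolimus replicate 2. GABARAPL1 and GABARAPL2, ATG8 proteins of the autophagosome membrane, were at 0.54 and 0.34 in the ridaforolimus line, with TOLLIP at -0.13. The ridaforolimus libraries overlapped the parental ones for GABARAPL1 but not for GABARAPL2. MAP1LC3B, the source of LC3B, had 261 and 112 CPM in the ridaforolimus line, 178 and 69.4 CPM in the everolimus line and 300.4 and 209.8 CPM in the parental line. Its log2 fold change was -0.45 in the ridaforolimus line, 0.04 without ridaforolimus replicate 2, and -1.04 in the everolimus line (adjusted p = 0.598), -0.53 without everolimus replicate 2, with replicate 2 below replicate 1 in every group. Of 10 ubiquitin enzymes that work with CHIP 4 were above 0 in the ridaforolimus line (6 without ridaforolimus replicate 2) and 3 in the everolimus line, with UBE2D1 and UBE4B at 0.30 and 0.28 and UBE2D2 and UBE4A at -0.39 and -0.39 in the ridaforolimus line.

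The genes around HSPB8 on chromosome 12 did not follow it as a group. The nearest tested gene upstream with at least 1 CPM was the long noncoding ENSG00000275759 at -749.8 kb, with 0.397 to 2.54 CPM, and the next were SUDS3 and TAOK3, at log2 fold changes of 0.17 and -0.12 in the ridaforolimus line. Downstream, PRKAB1 at 446.6 kb, CIT at 464.7 kb and BICDL1 at 768.7 kb were at -0.17, 0.25 and -0.93. In the everolimus line ENSG00000275759, SUDS3 and TAOK3 were at 1.13, -0.11 and -0.52. PRKAB1, CIT and BICDL1 were at -0.18, 0.15 and -1.30 in that line. Within 5 Mb on either side, 119 genes with at least 1 CPM had a median of 0.01 in the ridaforolimus comparison and -0.05 in the everolimus comparison. One of them exceeded HSPB8 in the ridaforolimus comparison, MSI1, which encodes the RNA-binding protein Musashi 1 and was singled out after its values were seen. It lies 1.155 Mb away and was at 2.11 in the ridaforolimus line, -0.66 in the everolimus line and 2.77 between the resistant lines. Other genes of the window had the same signs with smaller differences between the resistant lines. Among them, also singled out by their values, were LINC00173, MAP1LC3B2 and CABP1. They were at 1.45, 0.93 and 0.73 in the ridaforolimus line and -0.27, -0.66 and -0.80 in the everolimus line. Between the resistant lines they were at 1.72, 1.60 and 1.53. HIP1R, named below among the genes most like HSPB8, was another, 3.649 Mb away at 0.30 and -0.26. Of the 119 genes, 61 were above 0 in the ridaforolimus comparison and 55 in the everolimus comparison, where 1, BICDL1, lay below HSPB8.

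**Figure D4:**
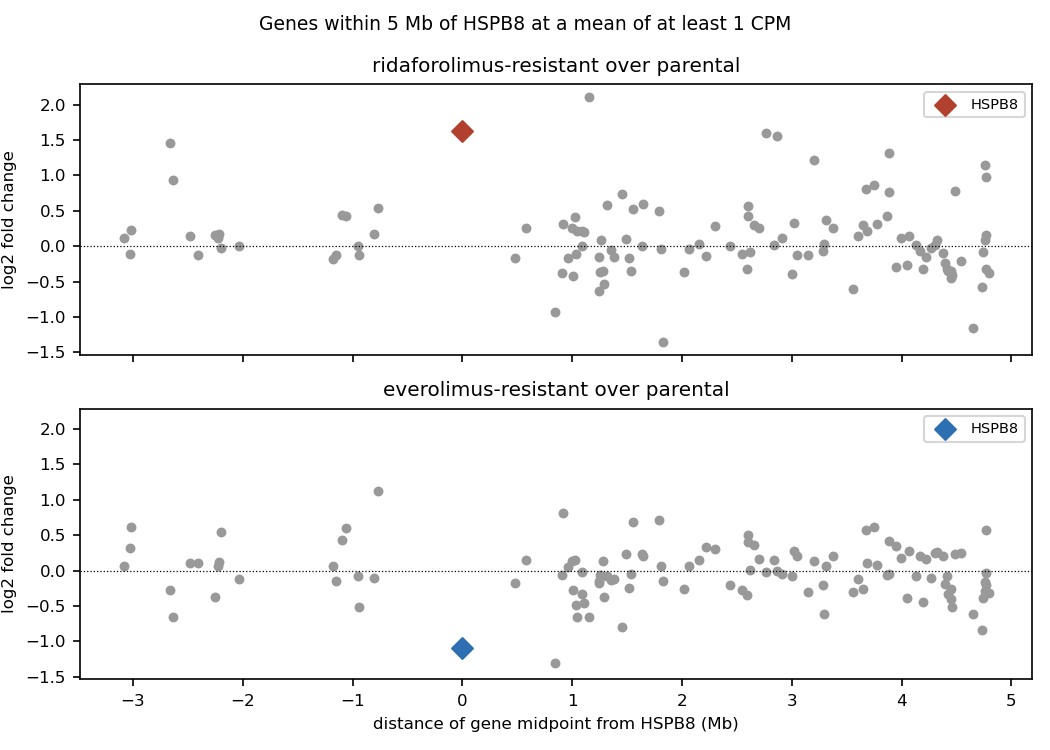
Log2 fold change of genes within 5 Mb of HSPB8, against distance from its centre in Mb, for the ridaforolimus-resistant and the everolimus-resistant line over the parental line. Among 119 neighbours the median is 0.01 and -0.05, and HSPB8 itself is at 1.62 and -1.09.

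Across the 6 libraries, the genes whose log2 CPM was most like that of HSPB8 were PANX2, ASAP2, HIP1R, PSD4 and PKIG, with Pearson r of 0.997, 0.996, 0.992, 0.991 and 0.988 among 11104 candidates. With 6 points in 3 groups such values describe the order of the groups, and no p is given. PANX2, a pannexin channel protein, had 24.8 and 31.6 CPM in the ridaforolimus line, 4.35 and 4.69 CPM in the everolimus line and 10.0 and 7.54 CPM in the parental line. PSD4, an exchange factor for the GTPase ARF6, had 21.3 and 24.5 CPM in the ridaforolimus line, 7.17 and 8.26 CPM in the everolimus line and 11.2 and 11.8 CPM in the parental line. The other 3 had the same order over smaller distances, with log2 fold changes of 0.22 to 0.30 in the ridaforolimus line and -0.26 to -0.19 in the everolimus line. None of the 5 was on the chaperone lists, but these hold only 123 tested genes beside the 10, out of 21223, so nothing is read from this. Among the 8 other fitted genes r with HSPB8 ran from -0.651 for STUB1 to 0.549 for HSPB1, and it was -0.21 for BAG3 and -0.341 for HSPA8.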

How the data were processed

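The authors deposited a table of raw read counts per Ensembl gene for all 6 libraries, and per the submitters' processing notes the tools included HTSeq 0.13.5, STAR 2.7.9a, DESeq2 and Trim Galore 0.6.6, on the GRCh38 (hg38) build. Per the labels, the libraries came from a stranded mRNA kit. The sources used here give neither strand setting nor annotation release. Symbols came from a separate gene-name reference matched by Ensembl identifier, coordinates and exon lengths from GENCODE 29, and upstream sequences from RefSeq.

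Counts were fitted in one edgeR 4.0.16 quasi-likelihood model (glmQLFit, glmQLFTest; TMM factors; filterByExpr; limma 3.58.1; R 4.3.3) of 3 groups, with 3 residual degrees of freedom and Benjamini-Hochberg adjustment over 21223 genes, two-sided, at 0.05. The filter kept 9 of the 10 genes. CPM use TMM library sizes, and TPM the summed exon length. DESeq2 1.42.0 and limma-voom were alternatives, with left-out libraries, other scalings, filters and a replicate block. A floor of 3 counts and all intervals cover counting or fit error only. Counting of reads without molecular identifiers cannot tell copies apart.

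The genes and lists were chosen with earlier results of these data known. Named list genes are the 2 highest and 2 lowest in the ridaforolimus comparison at 5 CPM or more, plus any past the threshold; 1 gene that the rule names is not reported here. Genes most like HSPB8 are the 5 with the highest Pearson r of log2 CPM (prior count 2), pseudogene, clone and antisense names left out. Neighbours are the 3 nearest tested genes on each side at 1 CPM or more. Replicates of a group differed by more than sampling noise. All 6 columns were mapped to a sample by name.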

Additional observations from a re-analysis of the deposited data

Results flagged for a closer look

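HSPB8 lay on opposite sides of the parental level in the 2 resistant lines. Both ridaforolimus-resistant libraries (14.3 and 15.6 CPM) were above both parental libraries (5.35 and 4.37 CPM), and both everolimus-resistant libraries (2.17 and 2.38 CPM) were below them, a log2 difference of 2.71 between the resistant lines. The difference between the resistant lines was not tested, since HSPB8 was picked for its ridaforolimus level. The everolimus fold change over the parental line missed the threshold (adjusted p = 0.419, edgeR quasi-likelihood test). Of all genes tested, 49.4% did not overlap in the ridaforolimus comparison and 41.1% in the everolimus comparison. The drug doses, 30 µM ridaforolimus and 20 µM everolimus, differed too.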

How the results depend on the processing

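The HSPB8 log2 fold change stayed between 1.61 and 1.72 in the ridaforolimus comparison under the 8 other settings, 1.48 to 1.76 with one library left out, and between -1.09 and -1.05 in the everolimus comparison, -1.23 to -0.94 with one left out, where its adjusted p ran from 0.189 to 1. Counts of genes past the threshold depended strongly on the setting. In the ridaforolimus comparison 68 became 1195 with no filter on low counts, 574 with DESeq2, 127 with only the 2 groups compared and 1 to 276 with one library left out. In the everolimus comparison 1 became 493 with no filter, 150 with DESeq2, 0 with upper-quartile factors, with at least 5 CPM in 2 libraries or with only the 2 groups compared, and 0 to 3 with one left out. For ridaforolimus over everolimus 158 became 1362 with no filter, 81 at 5 CPM, 657 with DESeq2, 0 with only the 2 groups compared and 19 to 123 with one left out. DESeq2 gave no adjusted p for 2058, 3704 and 1235 genes in these comparisons. The cause was not tested.

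Deviations of same-numbered libraries correlated at -0.19 between the resistant lines and at -0.17 between the ridaforolimus and parental lines. Between the everolimus and parental lines these deviations correlated at 0.33, so the sign was not the same throughout. Whether same-numbered libraries shared a batch was not tested. With the replicate block the counts were 28, 0 and 49, and no member passed in the everolimus comparison or, HSPB8 aside, between the resistant lines.

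Of the members, 0 passed in the everolimus comparison, but 1 with no filter and 1 with DESeq2, HSPA8 each time. For ridaforolimus over everolimus it was 0, and 1 with no filter, HSPA8 again (adjusted p = 0.0122). With one library left out, fold changes that turned ran from -0.60 to 0.06 for BAG3, -0.58 to 0.13 for HSPA1B, -0.32 to 0.23 for DNAJB1 and -0.08 to 0.18 for HSF1 between the resistant lines. In the everolimus comparison they ran from -0.37 to 0.69 for HSPA1A, -0.02 to 0.75 for HSPA1B, -0.50 to 0.05 for DNAJB1, -0.10 to 0.16 for HSF1 and -0.21 to 0.37 for STUB1. Depth limits HSPA1A and CRYAB, and HSPB8 in the everolimus line rests on 30 and 36 counts.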
